A study of Mus musculus with 24 samples.

Results

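Chromatin accessibility was examined at 10 genes by which alveolar macrophages are recognised: Siglecf, Marco, Itgax, Car4, Chil3, Fabp4, Cidec, Krt79, Ear1 and Ear2. Every consensus peak that overlapped a gene body or lay within 20 kb on either side of it was taken and given to the nearest of the 10 genes, which gave 115 of the 184158 peaks in the count table. The peaks were taken by position alone, while the genes were chosen with earlier results of these data known. Of these 115 peaks, 113 passed the filter on low counts and could be tested, and the remaining 2 lay near Itgax and Chil3.

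The libraries were made by ATAC-seq, which reads open chromatin through the places where a transposase can insert, from mouse bone marrow cells grown into macrophages (BMDMs) in 10% serum with the cytokines GM-CSF (at 10 ng/ml) and TGF-β (at 2 ng/ml) so that they resemble alveolar macrophages. Of 24 libraries, 6 each came from unstimulated WT, unstimulated AhR-KO, LPS-treated WT and LPS-treated AhR-KO cultures. WT marrow came from C57/B6/J mice and AhR-KO marrow from B6.129-Ahr tm1Bra/J mice, in which the aryl hydrocarbon receptor gene Ahr is disrupted in all tissues, so that differences set before the marrow was taken are included. LPS, a bacterial cell wall component, was added at 97 EU/ml on day 6, left for 24 h and followed by 10 min of a calcium ionophore at 5 µM. The labels attach this text to all 24 libraries, so whether unstimulated cultures also received the ionophore is not settled by them. The cells are a culture model grown from marrow and were never in a lung. The study used separate animals within a group. Whether an unstimulated and an LPS culture came from the same animal is not stated, so the p-values measure the spread between libraries.

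Alveolar macrophages live on the air side of the lung surface, where they take up surfactant lipids, inhaled particles and bacteria. GM-CSF and TGF-β from the surrounding tissue induce the nuclear receptor PPARγ, which in turn switches on a set of lipid-handling and surface genes that other tissue macrophages lack. AhR is a transcription factor that small molecules activate and that binds DNA at short GCGTG cores, while LPS acts through TLR4 and brings NF-kB, AP-1 and IRF factors to the DNA.

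The sequences below belong to the peaks on which the results turn, given on the plus strand of GRCm38 (mm10) as the central 300 bases, and to promoters, given along the gene from 250 bases before to 50 bases after the start as RefSeq has them (GRCm38.p6). Capitals mark a match, on either strand, to one of 7 patterns, which are the AhR core GCGTG, PU.1 GAGGAAGT, AP-1 TGANTCA, C/EBP TTGCNNAA, the nuclear receptor core AGGTCA, NF-kB GGGANTTTC and IRF GAAANNGAA. No pattern contains another. The first 4 are the peaks with the smallest p for a genotype difference without LPS (Itgax, chr7:128137143-128137442), for one with LPS (Marco, chr1:120510114-120510413), for the LPS difference in WT (Chil3, chr3:106170548-106170847) and for the interaction (Ear1, chr14:43817256-43817555).
Itgax peak: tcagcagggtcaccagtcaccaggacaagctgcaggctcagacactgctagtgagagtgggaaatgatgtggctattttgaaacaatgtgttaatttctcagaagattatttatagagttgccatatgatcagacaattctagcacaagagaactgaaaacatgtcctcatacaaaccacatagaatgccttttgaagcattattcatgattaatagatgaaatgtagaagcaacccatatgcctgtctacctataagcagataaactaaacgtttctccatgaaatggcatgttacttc
Marco peak: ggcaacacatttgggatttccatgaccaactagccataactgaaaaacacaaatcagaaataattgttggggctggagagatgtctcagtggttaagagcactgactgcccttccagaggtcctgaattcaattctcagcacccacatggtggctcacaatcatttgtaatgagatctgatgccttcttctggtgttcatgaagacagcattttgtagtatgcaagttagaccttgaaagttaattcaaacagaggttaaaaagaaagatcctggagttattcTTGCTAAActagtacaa
Chil3 peak: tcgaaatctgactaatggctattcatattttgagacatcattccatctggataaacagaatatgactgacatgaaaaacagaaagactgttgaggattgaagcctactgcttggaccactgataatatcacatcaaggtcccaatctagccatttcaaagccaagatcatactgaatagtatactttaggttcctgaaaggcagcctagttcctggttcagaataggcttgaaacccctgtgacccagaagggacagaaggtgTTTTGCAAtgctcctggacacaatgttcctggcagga
Ear1 peak: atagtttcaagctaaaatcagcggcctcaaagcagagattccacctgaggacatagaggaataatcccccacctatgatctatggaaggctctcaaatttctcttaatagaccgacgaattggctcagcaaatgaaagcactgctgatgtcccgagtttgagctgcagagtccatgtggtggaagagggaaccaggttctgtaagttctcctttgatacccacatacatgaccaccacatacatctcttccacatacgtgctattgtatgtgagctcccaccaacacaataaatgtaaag
The promoters of Ear1 (chr14:43819590-43819889, minus strand) and Ear2 (chr14:44102404-44102703, plus strand) are shown because they are close copies, identical at 294 of 300 aligned bases (98%), and that of Cidec (chr6:113435711-113436010, minus strand) because it belongs to the start-site peak with the largest LPS difference of the 9 and holds an AhR core.
Ear1 promoter: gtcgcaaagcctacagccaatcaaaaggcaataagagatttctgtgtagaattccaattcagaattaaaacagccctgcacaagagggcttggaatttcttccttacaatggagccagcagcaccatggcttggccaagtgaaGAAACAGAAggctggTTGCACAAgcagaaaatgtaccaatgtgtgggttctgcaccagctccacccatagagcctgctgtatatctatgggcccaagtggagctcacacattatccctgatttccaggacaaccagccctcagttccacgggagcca
Ear2 promoter: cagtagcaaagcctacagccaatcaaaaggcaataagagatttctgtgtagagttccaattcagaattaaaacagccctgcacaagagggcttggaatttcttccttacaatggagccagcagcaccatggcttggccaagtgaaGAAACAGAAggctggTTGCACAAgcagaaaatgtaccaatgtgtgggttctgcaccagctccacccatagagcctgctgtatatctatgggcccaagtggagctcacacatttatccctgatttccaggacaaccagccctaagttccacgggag
Cidec promoter: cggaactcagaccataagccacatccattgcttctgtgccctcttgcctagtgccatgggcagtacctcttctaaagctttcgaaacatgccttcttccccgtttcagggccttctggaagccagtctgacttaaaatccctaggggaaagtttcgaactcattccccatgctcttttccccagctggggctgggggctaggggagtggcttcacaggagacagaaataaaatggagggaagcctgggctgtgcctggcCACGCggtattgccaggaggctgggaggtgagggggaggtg

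The Itgax and Ear1 peak windows held none of the 7 patterns, and the Marco and Chil3 windows held 1 C/EBP match each. An AhR core was found in the central 300 bases of 10 of the 115 peaks (8.7%, 95% exact binomial interval 4.25 to 15.4), against 16% of all consensus peaks and 32.4% of 32851 RefSeq promoters. In whole peaks these shares were closer, 26.1% and 29.1%. The nuclear receptor core was found in 31.3% of the 115 windows and 20.2% of all, C/EBP in 21.7% and 15.7%, AP-1 in 16.5% and 17.9%, IRF in 8.7% and 10.8%, PU.1 in 6.96% and 7.33%, and NF-kB in 1.74% and 1.76%. Among RefSeq promoters the shares were 16.3% for the nuclear receptor core, 10.8% for C/EBP, 7.81% for AP-1, 8.56% for IRF, 3.2% for PU.1 and 1.11% for NF-kB. The RefSeq table held 10 promoters of 9 of the genes, with 2 for Cidec and none for Fabp4. Of these 10, an AhR core was in 3 (both Cidec promoters and that of Itgax) and a C/EBP match in 3 (Ear1, Ear2 and 1 of Cidec). An IRF match was in 3 and an AP-1 match in 2, while the nuclear receptor core, PU.1 and NF-kB were in 0. These matches describe letters in windows, and the same peaks share nearby sequence, so no test was made of them.

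Without LPS, Marco, Itgax, Krt79, Car4 and Fabp4 had peaks that were more accessible in AhR-KO than in WT cells. Peaks less accessible with LPS than without were found at 9 of the 10 genes in WT (all but Fabp4) and at all 10 in AhR-KO. Peaks more accessible with LPS were found at every gene in WT and at all but Itgax in AhR-KO, so these counts of genes favour neither direction. Peaks whose level differed at least 1.5-fold with an adjusted p no higher than 0.05 are called DARs (differentially accessible regions), from 1 edgeR fit to all 24 libraries with p-values adjusted over 174193 tested peaks. Without LPS, 31 of the 113 tested peaks were higher DARs in AhR-KO (27.4%, against 9.95% of all tested peaks) and 1 was lower (0.885%, against 12.6%). The median log2 fold change was 0.337 over the 113 peaks and -0.0212 over all tested peaks. The 31 higher DARs were at 5 genes, 10 at Marco, 8 at Itgax, 6 at Krt79, 5 at Car4 and 2 at Fabp4, while Siglecf, Chil3, Cidec, Ear1 and Ear2 had none. Counting only peaks whose nearest protein-coding start site was that of 1 of the 10 genes, 24 were higher DARs, and no share was computed for this count. Of the 11 peaks given to Krt79, 4 had Krt79 as the nearest start site. The 1 lower DAR, the Ear1 peak at 70.91 kb (chr14:43804303-43804907, log2 fold change -0.62 ± 0.186, adjusted p = 0.00687), was not called when WT unstimulated replicate 1 or 2 or AhR-KO unstimulated replicate 3 or 6 was left out. The count of lower DARs was 2 without WT unstimulated replicate 3 or AhR-KO unstimulated replicate 1, 2 or 5, and 3 without WT unstimulated replicate 6.

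In the presence of LPS, higher DARs in AhR-KO numbered 6 against 10 without LPS at Marco, 3 against 8 at Itgax, 2 against 6 at Krt79 and 1 against 5 at Car4, but 3 against 2 at Fabp4, 3 against 0 at Ear1 and 1 against 0 at Ear2. Together 19 of 113 peaks were higher in AhR-KO (16.8%, against 13.4% of all tested peaks) and 3 were lower (2.65%, against 13.1%), with medians of 0.131 and 0.0211. The lower DARs were 2 at Ear1 and 1 at Siglecf. Of the 31 higher DARs without LPS, 14 were also higher DARs with LPS, which is 45.2% of the first list and 73.7% of the second. The overlap over all tested peaks was not computed, so whether this one is unusual cannot be told. The 2 comparisons use separate libraries, but these share the same fit and may come from the same animals. All 6 AhR-KO libraries lay above all 6 WT libraries at 28 peaks without LPS and below them at 2, against 21% of all tested peaks without overlap in either direction. With LPS these counts were 15 and 3, against 19.6%.

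LPS lowered more of these peaks than it raised. In WT, 38 of 113 peaks were lower with LPS (33.6%, against 21.6% of all tested peaks) and 18 were higher (15.9%, against 25.4%), with medians of -0.213 and -0.0141. In AhR-KO, 47 were lower (41.6%, against 21.5%) and 14 were higher (12.4%, against 27.3%), with medians of -0.437 and 0.046. Fabp4 went against this, with 0 lower and 2 higher DARs in WT and 1 and 2 in AhR-KO, and Ear2 had 1 of each in WT. Of the lower DARs, 35 were shared by both genotypes, 92.1% of the WT list and 74.5% of the AhR-KO list, and of the higher DARs 12 were shared, 66.7% and 85.7%. The same overlaps over all tested peaks were not computed. Each LPS comparison shares its libraries with the genotype comparisons, so these counts are not independent of those above. The interaction, the genotype difference with LPS minus that without, was a lower DAR at 7 peaks (6.19%, against 4.58%) and a higher DAR at 1 (0.885%, against 5.83%). Without AhR-KO LPS replicate 3 the lower interaction count was 12, and without WT unstimulated replicate 4 the higher count was 2.

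**Figure D1:**
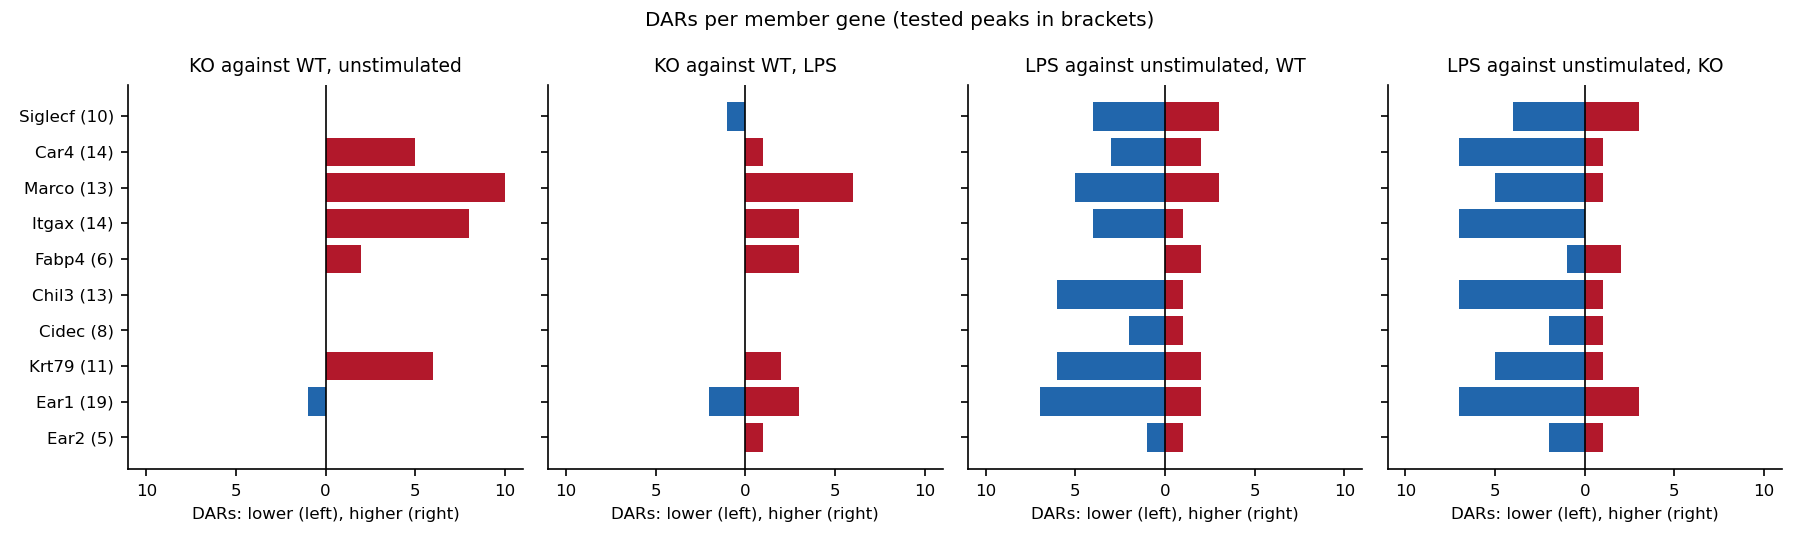
Number of DARs at each gene in the 4 comparisons, lower to the left (blue) and higher to the right (red), with the number of tested peaks in brackets; KO is AhR-KO. Marco, with 10 of 13 peaks, and Itgax, with 8 of 14, had the most higher DARs in AhR-KO without LPS. Lower DARs with LPS were found at 9 of the genes in WT and at all 10 in AhR-KO, and higher DARs with LPS at every gene in WT and at all but Itgax in AhR-KO.

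The peaks together held 0.0579 to 0.0648% of all counts in WT unstimulated libraries, 0.0709 to 0.0804% in AhR-KO unstimulated, 0.0467 to 0.0514% in WT LPS and 0.0505 to 0.0537% in AhR-KO LPS libraries. The AhR-KO range lay above the WT range without LPS, and the ranges overlapped with LPS. Library totals in consensus peaks ran from 8.54 to 34.6 M (times 1000000) counts, lowest in WT unstimulated replicate 5. Levels are given below as CPM (counts scaled to a normalized library total of 1000000), as the lowest, the median and the highest of the 6 libraries of a group, means as mean ± SD (n = 6), and differences as log2 fold changes ± SE. A peak's position is the distance of its centre from the annotated start of the gene in kb along the direction of transcription, negative upstream. Since these are whole cultures, fewer cells with an open site and less opening per cell cannot be told apart.

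Among the surface proteins, Marco, a scavenger receptor that binds bacteria and particles, had the most widespread genotype difference. Of its 13 peaks, 10 were higher DARs in AhR-KO without LPS, and these lay from -19.32 to 24.06 kb, while the 3 peaks beyond the gene's end (35.95, 37.65 and 39.89 kb) were not called, with log2 fold changes of 0.06, 0.34 and -0.04. The Marco peak at -5.24 kb (chr1:120509151-120511376), whose sequence is given above, had 1.44, 1.95 and 2.3 CPM in WT unstimulated and 3.47, 4.53 and 5.15 CPM in AhR-KO unstimulated libraries. With LPS it had 1.53, 2.3 and 3.13 CPM in WT and 4.3, 4.93 and 5.39 CPM in AhR-KO. In both conditions every AhR-KO library was above every WT library, and the LPS and unstimulated ranges of a genotype overlapped. The means were 1.89 ± 0.352 CPM and 4.45 ± 0.584 CPM (SD, n = 6 each) without LPS, a difference of 1.22 ± 0.147 (adjusted p = 2.07e-08), and with LPS it was 1.07 ± 0.132 (adjusted p = 3.05e-08).

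The peak over the Marco start (chr1:120504219-120505132) was low. It had 1.58, 3 and 4.42 CPM in WT and 4.3, 5.52 and 7.43 CPM in AhR-KO unstimulated libraries, and 1.2, 1.85 and 2.31 CPM and 1.97, 2.71 and 2.89 CPM with LPS. Without LPS 5 of 6 AhR-KO libraries were above every WT library (log2 fold change 0.94 ± 0.169, adjusted p = 2.81e-05). With LPS the difference was 0.52 ± 0.176 (adjusted p = 0.0158), under 1.5-fold, though it passed that fold when AhR-KO LPS replicate 1 was left out (0.59) and without WT LPS replicate 3 or 4 (0.60 each). Thinned to the lowest total it was 0.91 (adjusted p = 0.00122), a DAR. The LPS difference at the Marco start site was -0.68 ± 0.182 (adjusted p = 0.00148) in WT, where it was -0.58 and no DAR without WT LPS replicate 1, and -1.1 ± 0.164 (adjusted p = 3.7e-07) in AhR-KO. The upstream Marco peak at -19.32 kb (chr1:120524073-120524625), the most accessible of the 13, was higher in all 6 AhR-KO libraries of both conditions, by 1.17 ± 0.191 (adjusted p = 2.25e-05) and 1.14 ± 0.182 (adjusted p = 1.44e-05), with LPS differences of -0.08 and -0.11. In contrast, the intron peak at 6.76 kb (chr1:120498102-120498433) fell with LPS from 1.85 ± 0.497 CPM to 0.724 ± 0.18 CPM in WT and from 3.75 ± 0.587 CPM to 1.06 ± 0.245 CPM in AhR-KO (-1.37 and -1.81, adjusted p = 1.56e-07 and 1.44e-11). The Marco intron peak at 24.06 kb (chr1:120480535-120481386) had 0.88 for genotype without LPS and 0.32 with LPS, and its interaction, -0.56 ± 0.166 (adjusted p = 0.0196), was just under 1.5-fold. Summed over all 13 peaks, Marco had 27.6, 40.3 and 49.7 CPM in WT and 68, 77.6 and 85.5 CPM in AhR-KO libraries without LPS, and 27.3, 36.5 and 44.4 against 52.9, 57.1 and 61.7 CPM with LPS, with no overlap between genotypes.

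Itgax encodes the integrin CD11c, an adhesion receptor of alveolar macrophages and dendritic cells, and its start-site peak was the most accessible per kb among those of the genes. This peak (chr7:128128893-128129776) had 15.8, 17.2 and 18 CPM in WT and 24, 29.5 and 31 CPM in AhR-KO unstimulated libraries. With LPS it had 19.6, 22.6 and 24.4 CPM in WT and 25, 28.3 and 34.4 CPM in AhR-KO. The genotypes were separate in both conditions, and in WT the LPS libraries were all above the unstimulated ones. The genotype difference was 0.72 ± 0.0793 (adjusted p = 3.74e-09) without LPS and 0.38 ± 0.0751 (adjusted p = 6.88e-05) with LPS, and the LPS difference was 0.36 ± 0.079 (adjusted p = 0.000128) in WT and 0.03 ± 0.0752 (adjusted p = 0.717) in AhR-KO. Only the first of these reached 1.5-fold.

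The intron peak at 7.74 kb of Itgax (chr7:128136962-128137622) had the smallest p of the 113 peaks for genotype without LPS. It had 8.78, 10.8 and 12.3 CPM in WT and 15.9, 22.5 and 25.1 CPM in AhR-KO unstimulated libraries, and 10.4, 13.1 and 14 CPM and 18.1, 20.1 and 22.8 CPM with LPS. AhR-KO was above WT in all 6 libraries of both conditions, by 1.03 ± 0.105 (adjusted p = 1.23e-09) without and 0.69 ± 0.0986 (adjusted p = 6.97e-07) with LPS. The peak at -19.06 kb (chr7:128110225-128110751) instead fell with LPS, from 4.27 ± 0.598 CPM to 1.05 ± 0.262 CPM in WT and from 5.52 ± 0.815 CPM to 0.998 ± 0.322 CPM in AhR-KO (-2.04 and -2.46, adjusted p = 2.56e-13 and 8.86e-16). The coding exon peak at 4.22 kb (chr7:128133523-128134021) had 0.55 for genotype without LPS and 0.05 with LPS, neither a DAR. Of the 8 higher DARs at Itgax, 3 (22.42, 35.2 and 40.69 kb) were nearer to the start of Itgad, a related integrin gene, than to that of Itgax. Itgax, Itgad and Itgam are similar in sequence, and how reads that align to several places were handled is not given in the sources used here.

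**Figure D2:**
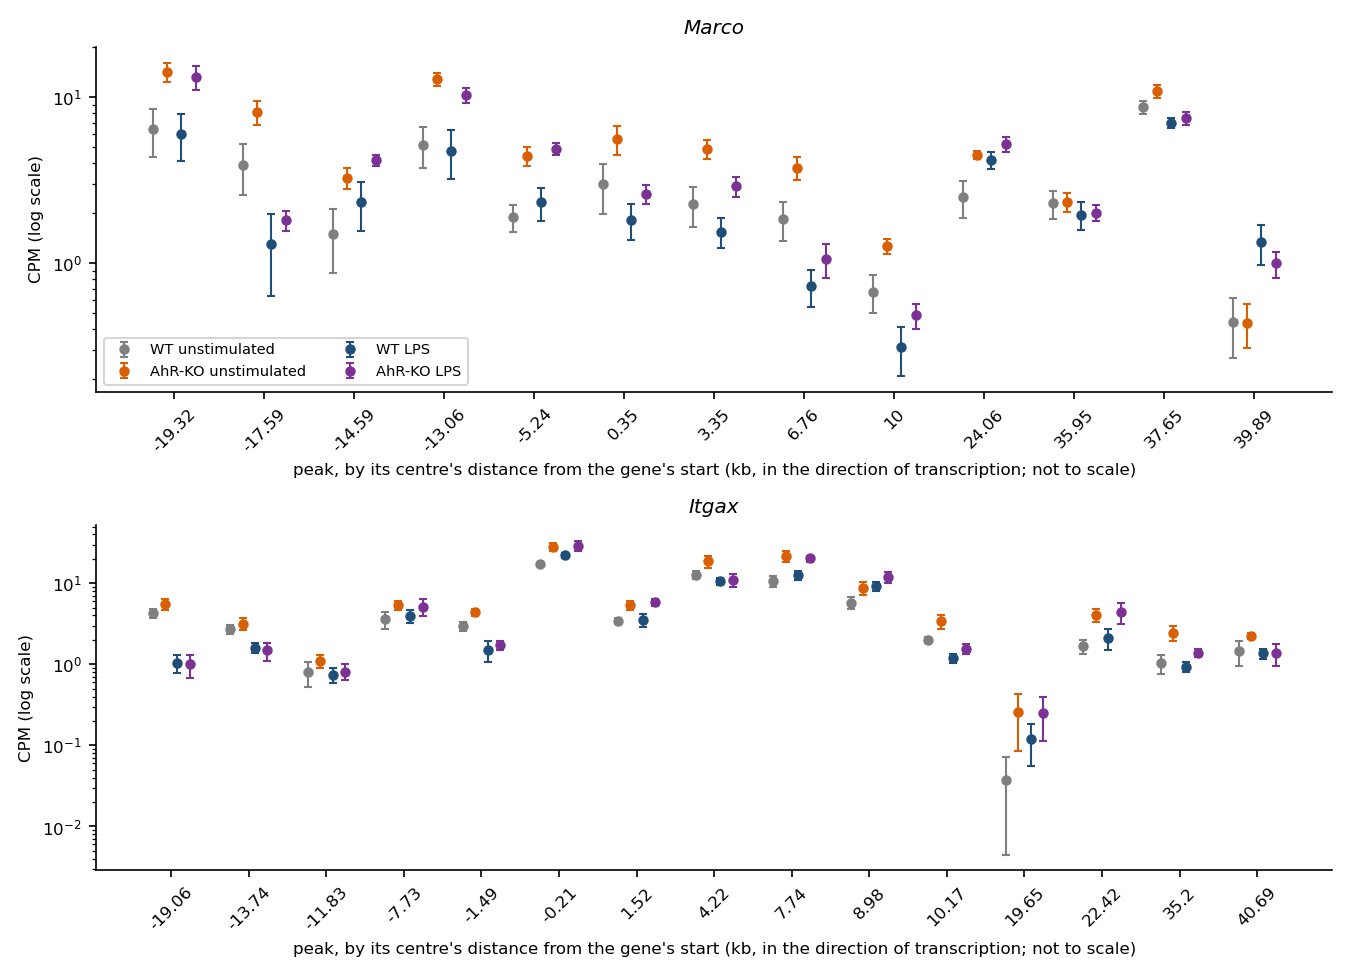
Mean level (points) and SD over 6 libraries (bars) of every peak at Marco (13 peaks) and Itgax (15 peaks, including the untested one at 19.65 kb) in CPM on a log axis, by the distance of the peak's centre from the gene's start in kb, not to scale. The orange AhR-KO unstimulated points lie above the grey WT unstimulated points from -19.32 to 24.06 kb of Marco, while at Itgax -19.06 kb the WT LPS and AhR-KO LPS points lie below both unstimulated groups.

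Siglecf, an inhibitory lectin receptor that marks alveolar macrophages and eosinophils in mice, had 4 lower and 3 higher DARs with LPS in each genotype, against 0 genotype DARs without LPS and 1 with it. Its start-site peak (chr7:43351090-43351613) had 7.1, 7.81 and 9.07 CPM in WT and 9.95, 10.3 and 12.9 CPM in AhR-KO unstimulated libraries, and 3.47, 4.41 and 5.26 CPM and 3.43, 4.57 and 5.63 CPM with LPS. All LPS libraries were below all unstimulated ones of the same genotype, -0.88 ± 0.109 (adjusted p = 6.97e-09) in WT and -1.23 ± 0.106 (adjusted p = 1.1e-12) in AhR-KO. AhR-KO was higher than WT in all 6 libraries without LPS, by 0.41 ± 0.104 (adjusted p = 0.00164), which is under 1.5-fold. The intron peak at 2.07 kb (chr7:43353103-43353712), the most accessible peak of the gene, fell likewise, from 22.1 ± 0.993 CPM to 11.8 ± 0.879 CPM in WT and from 20.8 ± 1.98 CPM to 9.14 ± 1.19 CPM in AhR-KO (-0.9 and -1.19). A peak beyond the gene at 20.27 kb (chr7:43371243-43371972) moved the other way, from 0.789 ± 0.153 CPM to 3.29 ± 0.44 CPM in WT and from 0.847 ± 0.212 CPM to 4.55 ± 0.468 CPM in AhR-KO, 2.08 ± 0.164 (adjusted p = 1.5e-13) and 2.42 ± 0.152 (adjusted p = 1.67e-16). The only genotype DAR was the weak peak at -16.01 kb (chr7:43335006-43335647), lower in all 6 AhR-KO LPS libraries (0.181 to 0.466 CPM) than in WT LPS (0.628 to 1.71 CPM, log2 fold change -1.57 ± 0.322, adjusted p = 0.000154). The upstream peak at -8.03 kb (chr7:43342985-43343641) was slightly lower in AhR-KO without LPS, -0.37 ± 0.0912 (adjusted p = 0.0011).

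Of the 2 enzyme and lectin genes, Car4 encodes a carbonic anhydrase anchored to the cell surface, and Chil3 encodes Ym1, a secreted chitinase-like protein. The Car4 start-site peak (chr11:84957138-84958391) had 6.49, 6.8 and 7.56 CPM in WT and 8.99, 10.8 and 11.8 CPM in AhR-KO unstimulated libraries, and 4.49, 6.35 and 7.49 CPM and 5.73, 6.7 and 9.18 CPM with LPS. The genotypes did not overlap without LPS and overlapped with LPS. The differences were 0.61 ± 0.115 (adjusted p = 5.07e-05) and 0.2 ± 0.112 (adjusted p = 0.155), and the first fell short of 1.5-fold (0.57) when AhR-KO unstimulated replicate 2 was left out. The LPS difference was -0.17 in WT and -0.58 in AhR-KO, the latter just under 1.5-fold, though it passed that fold when AhR-KO LPS replicate 1, 4 or 5 or AhR-KO unstimulated replicate 3, 4 or 6 was left out (-0.59 to -0.67), and with RLE or upper quartile size factors, DESeq2 or only the groups compared (-0.61 to -0.68).

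A Car4 peak at -11.88 kb (chr11:84945733-84946079) was one of the 7 with a lower interaction. It had 0.654, 1.03 and 1.16 CPM in WT, 1.61, 2.26 and 2.71 CPM in AhR-KO, 0.533, 0.63 and 1.01 CPM in WT LPS and 0.497, 0.733 and 1.05 CPM in AhR-KO LPS libraries. AhR-KO unstimulated libraries stood above all the others, with 33 to 69 counts each. The genotype difference was 1.22 ± 0.191 (adjusted p = 2.72e-06) without LPS and 0.12 ± 0.208 (adjusted p = 0.662) with LPS, an interaction of -1.09 ± 0.284 (adjusted p = 0.00751). When every library was thinned to the lowest total, the interaction at Car4 was -0.42 (adjusted p = 0.573). The distal peak at 27.56 kb (chr11:84984860-84985842) fell with LPS in both genotypes (-1.08 and -1.54, adjusted p = 1.95e-07 and 8.16e-11), with no overlap of ranges. The highest Car4 peak, at 21.75 kb (chr11:84979159-84979916), had 13.9 CPM, 16.5 CPM, 10.8 CPM and 12 CPM on average, in the same order of groups, and was a DAR in no comparison. The DARs at 16.44 kb (chr11:84974089-84974361) rested on 1 to 24 counts per library and were lost in many repeats of the fit, among them those without WT unstimulated replicate 1, 3 or 4 or AhR-KO unstimulated replicate 2, 3 or 6 for the comparison without LPS (adjusted p = 0.059 to 0.0976). The Car4 call with LPS was lost without WT unstimulated replicate 2, 3, 4 or 5, AhR-KO unstimulated replicate 1, 3, 4 or 6, WT LPS replicate 1, 2, 3, 5 or 6, or AhR-KO LPS replicate 1, 3, 4 or 6 (adjusted p = 0.05 to 0.147).

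Chil3 had no genotype DAR in either condition, and 6 of its 13 tested peaks in WT and 7 in AhR-KO were lower with LPS. Its strongest peak, at -3.13 kb (chr3:106169860-106171534), had 33.6, 39.4 and 44.6 CPM in WT and 36.5, 37.3 and 43.3 CPM in AhR-KO unstimulated libraries, and 15.7, 18.4 and 20.6 CPM and 15.9, 18.1 and 19.4 CPM with LPS. The genotypes overlapped in both conditions (-0.04 and -0.01), and the LPS libraries were all below the unstimulated ones, -1.12 ± 0.0716 (adjusted p = 4.74e-16) in WT and -1.09 ± 0.0716 (adjusted p = 5.97e-16) in AhR-KO. The start-site peak (chr3:106166666-106167798) showed the same with smaller values, 6.54 to 9.54 CPM and 6.44 to 8.18 CPM without LPS against 3.83 to 5.94 CPM and 3.77 to 4.78 CPM with it (-0.67 and -0.73). The peak at -10.92 kb (chr3:106177814-106179146) was the only one of the 113 with a higher interaction. It rose with LPS from 2.17 ± 0.347 CPM to 3.63 ± 0.489 CPM in WT and from 1.51 ± 0.292 CPM to 4.5 ± 0.81 CPM in AhR-KO, an interaction of 0.87 ± 0.204 (adjusted p = 0.00343), with an adjusted p of 0.0686 at the lowest depth. A Chil3 peak in an intron at 16.11 kb (chr3:106150781-106152119) had -0.52 for genotype with LPS, not a DAR. Chil3 lies beside its relative Chia1, so the limit on reads that align to several places holds here too.

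The lipid genes were Fabp4, a fatty acid carrier that PPARγ is known to induce, and Cidec, a protein of the lipid droplet surface. The Fabp4 start-site peak (chr3:10208560-10208796) was small and differed by genotype in both conditions. It had 1.2, 1.71 and 2.09 CPM in WT and 2.02, 2.45 and 2.83 CPM in AhR-KO unstimulated libraries, and 1.14, 1.75 and 2.1 CPM and 2.08, 2.8 and 3.7 CPM with LPS. In both conditions 5 of 6 AhR-KO libraries were above every WT library, 0.62 ± 0.165 (adjusted p = 0.00269) and 0.73 ± 0.148 (adjusted p = 0.000119), and the first was not a DAR without WT unstimulated replicate 1 or 4 or AhR-KO unstimulated replicate 1 or 5 (0.54 to 0.58). The LPS difference was 0.09 ± 0.166 (adjusted p = 0.671) in WT and 0.19 ± 0.147 (adjusted p = 0.247) in AhR-KO.

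An upstream Fabp4 peak at -3.42 kb (chr3:10211776-10212206) rose with LPS, from 1.28 ± 0.288 CPM to 4.22 ± 0.356 CPM in WT and from 1.51 ± 0.362 CPM to 7.24 ± 1.12 CPM in AhR-KO. The LPS differences were 1.72 ± 0.155 (adjusted p = 4.72e-12) and 2.24 ± 0.141 (adjusted p = 1.84e-16), and AhR-KO LPS was above WT LPS in all 6 libraries (log2 fold change 0.78 ± 0.122, adjusted p = 2.42e-06). The strongest Fabp4 peak, at -4.99 kb (chr3:10213055-10214075), was a DAR in no comparison, although all AhR-KO unstimulated libraries (21.2 to 23.7 CPM) were above WT (13.4 to 19.1 CPM, log2 fold change 0.46 ± 0.116, adjusted p = 0.00213). The peak at 9.41 kb (chr3:10198867-10199470), nearer to the start of the related gene Fabp9, was higher in AhR-KO by 0.94 ± 0.145 (adjusted p = 2.38e-06) without LPS and by 0.72 ± 0.147 (adjusted p = 0.000119) with LPS, the latter 0.51 and no DAR for Fabp4 at the lowest depth. Summed over its 6 peaks, Fabp4 was the only one of the 10 genes whose median level was higher with LPS than without in both genotypes, 23.7 against 30.8 CPM in WT and 34 against 34.6 CPM in AhR-KO, with overlapping ranges.

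Cidec had the largest LPS difference of the 9 start sites in both genotypes. This peak (chr6:113435165-113436254) had 9.31, 10.8 and 16.1 CPM in WT and 13.3, 16 and 17.7 CPM in AhR-KO unstimulated libraries, and 2.97, 4.37 and 5.45 CPM and 3.09, 4.12 and 4.74 CPM with LPS. The LPS ranges lay far below the unstimulated ones, -1.39 ± 0.127 (adjusted p = 1.26e-11) in WT and -1.97 ± 0.126 (adjusted p = 8.67e-16) in AhR-KO. The genotype difference was 0.49 ± 0.118 (adjusted p = 0.00111) without LPS and -0.09 ± 0.133 (adjusted p = 0.613) with LPS, neither a DAR, and the interaction was -0.58 ± 0.178 (adjusted p = 0.0242), just under 1.5-fold. It became a DAR without WT LPS replicate 1 or 2, WT unstimulated replicate 3 or 5, AhR-KO unstimulated replicate 3 or 6, or AhR-KO LPS replicate 3 or 4 (-0.59 to -0.67), with RLE (-0.63) or upper quartile size factors (-0.62), with DESeq2 (-0.62) and thinned to the lowest total (-0.81, adjusted p = 0.0203). The rest of the window held the start sites of the neighbours Jagn1 and Rpusd3. The latter (chr6:113418497-113419826) was the highest peak given to Cidec and stayed between 14.7 and 19.4 CPM in all 24 libraries. The far upstream peak at -19.42 kb (chr6:113454813-113455552), nearer to the start of Il17re, was lower with LPS, -1.18 in WT and -1.24 in AhR-KO.

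Krt79, a keratin gene whose transcript marks alveolar macrophages although its protein is a structural filament of epithelia, had no consensus peak over its start. The upstream peak at -5.16 kb (chr15:101945052-101945923) had 2.18, 3.27 and 4.07 CPM in WT and 5.11, 6.56 and 8.85 CPM in AhR-KO unstimulated libraries, and 1.05, 1.28 and 1.87 CPM and 1.13, 1.38 and 1.94 CPM with LPS. The genotypes were separate without LPS and overlapped with it. The genotype difference was 1.07 ± 0.145 (adjusted p = 2.12e-07) without LPS and 0.1 ± 0.174 (adjusted p = 0.683) with LPS, and the interaction was -0.97 ± 0.227 (adjusted p = 0.00311). The LPS difference was -1.27 in WT and -2.24 in AhR-KO (log2, adjusted p = 2.17e-08 and 2.06e-15). The most accessible peak, at -18.91 kb (chr15:101958751-101959710) and nearer to the start of Krt78, was higher in AhR-KO in all 6 libraries of both conditions, 0.91 ± 0.126 (adjusted p = 4.72e-07) and 0.68 ± 0.127 (adjusted p = 5.11e-05). Its fall with LPS in WT, -0.63 ± 0.132 (adjusted p = 9.01e-05), was under 1.5-fold without WT LPS replicate 1 (-0.55) or WT unstimulated replicate 5 (-0.57) or 6 (-0.58).

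The 2 remaining genes, Ear1 and Ear2, encode secreted ribonucleases first known from eosinophils. Ear2 had the highest counts of all the peaks, in a region of 3334 bases over its start and whole body (chr14:44102447-44105780). It had 43.8, 50.4 and 52.8 CPM in WT and 54.2, 60.1 and 73 CPM in AhR-KO unstimulated libraries, and 21.6, 24.8 and 29.1 CPM and 15.7, 19.6 and 21.9 CPM with LPS. All LPS libraries were below all unstimulated ones of the same genotype, -1.0 ± 0.0779 (adjusted p = 2.92e-13) in WT and -1.67 ± 0.0792 (adjusted p = 3.41e-19) in AhR-KO. AhR-KO was above WT in all 6 libraries without LPS (0.29) and below all WT libraries in 5 of 6 with LPS (-0.37), an interaction of -0.67 ± 0.11 (adjusted p = 8.79e-05). A weak peak at 7.49 kb (chr14:44109943-44110348) rose with LPS from 0.205 ± 0.0379 CPM to 0.75 ± 0.149 CPM in WT and from 0.345 ± 0.153 CPM to 2.19 ± 0.963 CPM in AhR-KO, and was higher in all 6 AhR-KO LPS libraries than in WT LPS (log2 fold change 1.54 ± 0.22, adjusted p = 4.88e-07).

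At Ear1 the annotation gives 2 starts, and the only start-site peak (chr14:43819430-43819708) covered that of the shorter transcript, 55.95 kb from the first. It had 0.792, 1.2 and 1.79 CPM in WT and 1.58, 1.8 and 1.96 CPM in AhR-KO unstimulated libraries, and 0.366, 0.514 and 0.717 CPM and 0.203, 0.488 and 0.651 CPM with LPS, from 5 to 45 counts per library. LPS libraries were below all unstimulated ones, -1.22 ± 0.218 (adjusted p = 8.07e-06) in WT and -1.91 ± 0.212 (adjusted p = 5.55e-10) in AhR-KO. The genotype difference without LPS was 0.54 ± 0.194 (adjusted p = 0.024) and became a DAR without WT unstimulated replicate 3 (0.61) or 4 (0.70), with RLE size factors (0.60) and with DESeq2 (0.61). The strongest Ear1 peak, in an intron at 31.3 kb (chr14:43843830-43844598), had 22.7, 24.9 and 25.1 CPM in WT and 33.7, 36.4 and 37.4 CPM in AhR-KO without LPS, and 11.3 to 17.9 CPM and 15.4 to 19.9 CPM with LPS. It was higher in all 6 AhR-KO libraries without LPS by 0.56 ± 0.078 (adjusted p = 3.08e-07), under 1.5-fold, and fell with LPS in both genotypes (-0.72 and -1.0).

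The peak just beyond the end of Ear1, at 58.11 kb (chr14:43816330-43818481), had the interaction with the smallest p. It had 11, 12.1 and 13.5 CPM in WT and 13.5, 15.7 and 17.9 CPM in AhR-KO unstimulated libraries, and 7.5, 11.1 and 12.4 CPM and 5.27, 6.67 and 8.27 CPM with LPS. AhR-KO was above WT without LPS (0.38) and below it with LPS (-0.67, adjusted p = 5.55e-06), an interaction of -1.05 ± 0.153 (adjusted p = 1.35e-05). The peak at 1.63 kb (chr14:43873487-43874281) was lower with LPS, -0.99 and -1.52, and the weak one at -15.04 kb (chr14:43890452-43890662) was higher with LPS, 1.72 and 2.54, and higher in AhR-KO than in WT with LPS (log2 fold change 1.31 ± 0.215, adjusted p = 5.38e-06). Because the Ear1 and Ear2 promoters shown above are nearly identical, and further Ear copies lie in the same cluster, counts at these genes may be shared between copies.

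**Figure D3:**
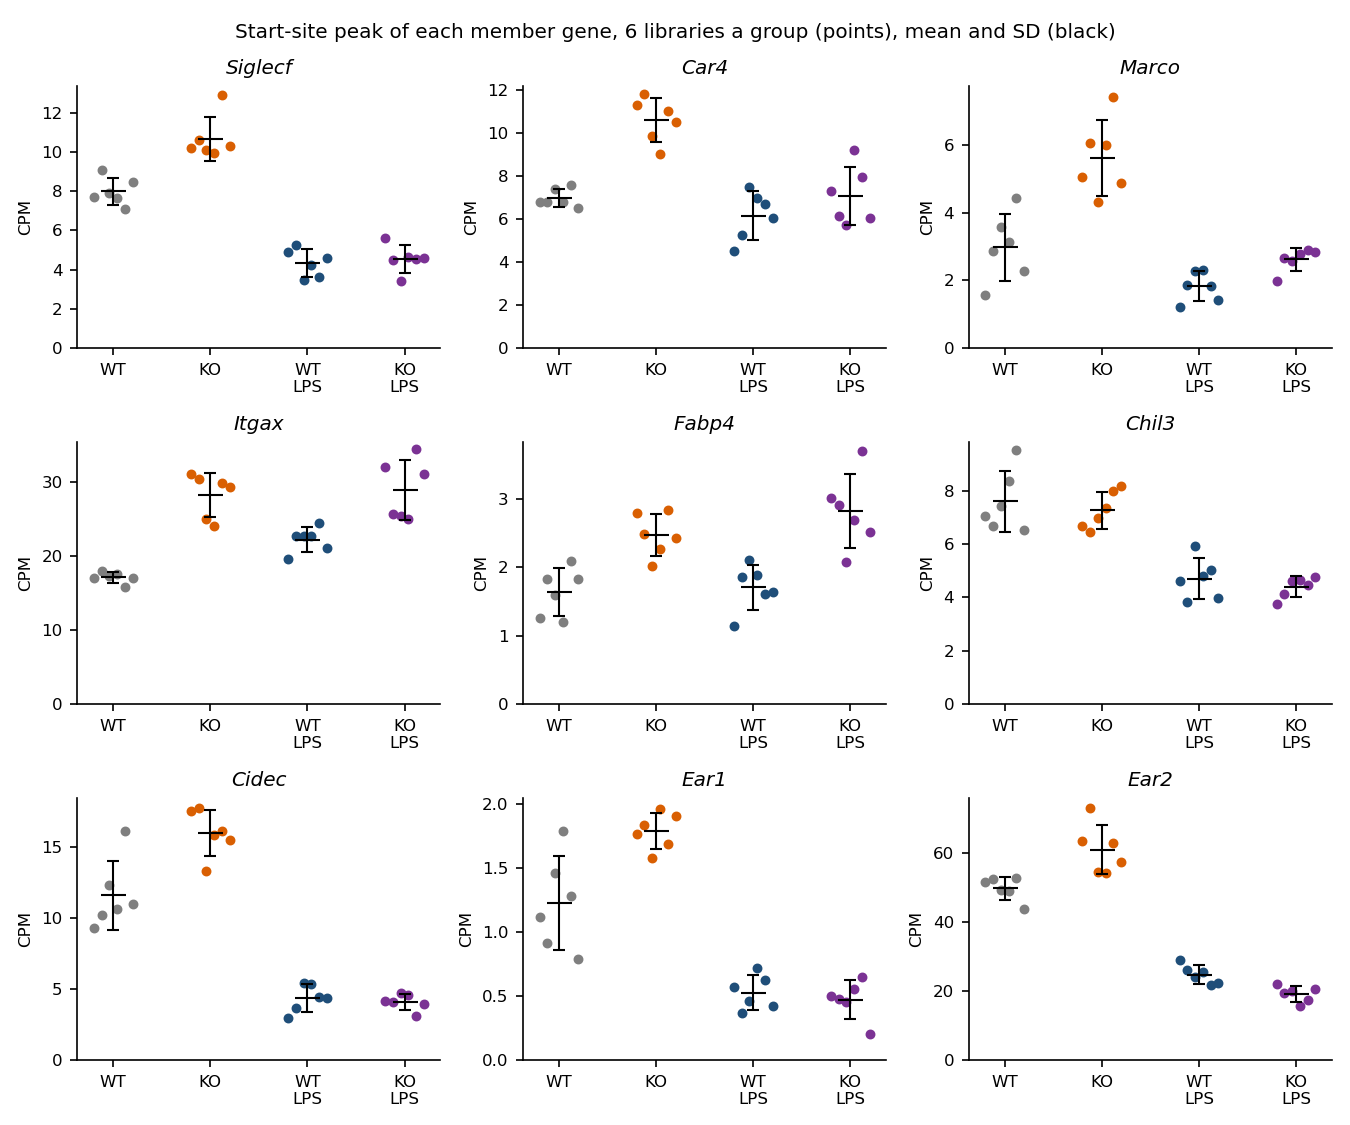
Level in CPM of the start-site peak of 9 genes (Krt79 has none) in each of the 24 libraries, as points with the group mean and SD in black; KO is AhR-KO and each axis starts at 0. LPS groups lie below unstimulated groups at Siglecf, Cidec, Ear1 and Ear2, whereas the WT LPS libraries of Itgax (19.6 to 24.4 CPM) lie above its WT unstimulated ones (15.8 to 18 CPM).

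Over the start sites together, 4 of 9 peaks (Car4, Marco, Itgax and Fabp4) were higher DARs in AhR-KO without LPS, against 1.81% of 12603 tested start-site peaks. With LPS 1 of them (Fabp4) was a higher DAR, against 1.29%, but thinned to the lowest total the Fabp4 difference was 0.56 and no DAR, and that of Marco was one. In both genotypes 6 of 9 (Siglecf, Chil3, Cidec, Ear1, Ear2 and again Marco) were lower DARs with LPS, against 5.74% of start-site peaks in WT and 10.6% in AhR-KO. No start site of these genes was a higher DAR with LPS, against 3.56% and 4.16%, although Itgax passed the adjusted p in WT (0.36, edgeR adjusted p = 0.000128). Compared per kb of peak, the mean level over all libraries was 27.3 CPM for Itgax, 13.2 for Siglecf, 11.6 for Ear2, 9.1 for Fabp4, 8.26 for Cidec, 6.13 for Car4, 5.29 for Chil3, 3.6 for Ear1 and 3.56 for Marco. This order pools the 4 groups. Cidec was above Fabp4 without LPS (10.6 against 6.89 CPM per kb in WT and 14.7 against 10.4 in AhR-KO) and below it with LPS (3.99 against 7.19 and 3.75 against 11.9). Among 12629 start-site peaks, with a median of 13.9 CPM per kb, Itgax stood at percentile 81.1 and Siglecf at 47.3, and the others from 41.7 (Ear2) down to 12.7 (Marco). Neighbours in this order such as Ear1 and Marco were closer than the spread of their libraries.

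The broad peaks that the authors called in each library alone covered these start sites in 191 of 216 pairs of library and gene. Siglecf, Car4, Marco, Itgax, Chil3, Cidec and Ear2 were called in 6 of 6 libraries of every group. Ear1 was called without LPS in 5 WT and 6 AhR-KO libraries and with LPS in 0 and 1, and Fabp4 in 2 and 4 without LPS and in 1 and 4 with it. A missing call can follow from a low count in a library as well as from a closed site. The fold enrichment of the Cidec call had medians of 7.87 in WT and 8.16 in AhR-KO unstimulated libraries, against 5.03 and 4.46 with LPS. At Marco and Chil3 the median was also lower with LPS in both genotypes. At other start sites it did not follow the counts. For Ear2 it was 4.93 without and 6.08 with LPS in AhR-KO, and 6.77 and 5.83 in WT. For Siglecf in WT it was 2.96 and 2.91. Without LPS it was 4.40 in WT and 4.46 in AhR-KO for Itgax, and 3.56 and 3.53 for Car4.

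**Figure D4:**
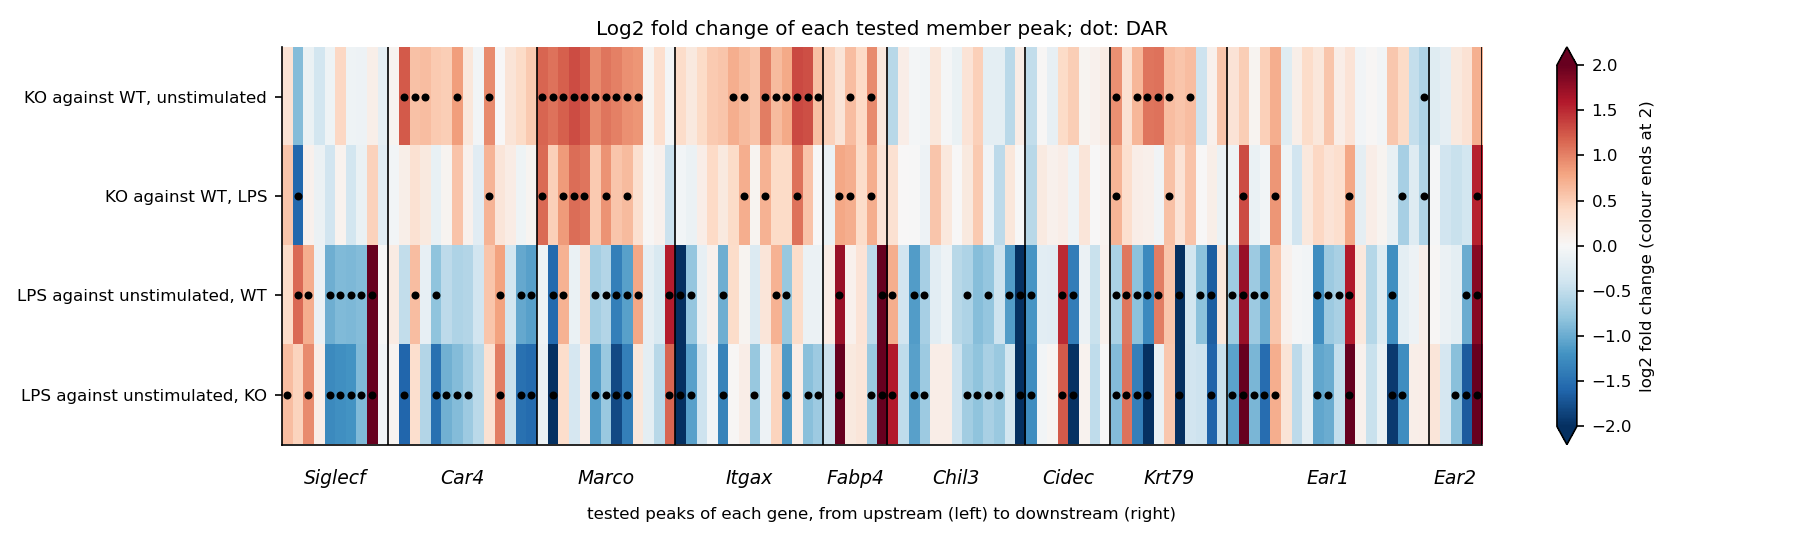
Log2 fold change (colour, which ends at 2) of each of the 113 tested peaks, ordered by gene and from upstream to downstream, in the 2 genotype comparisons and the 2 LPS comparisons; dots mark DARs and KO is AhR-KO. The red block at Marco, 10 dots without LPS and 6 with, stands beside Chil3 and Cidec, which have 0 dots in both genotype rows.

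Across the 24 libraries, the start-site peak most like that of Marco in log2 CPM was that of Sorbs3 (Pearson's r = 0.924) and then Cyp2ab1 (0.919), among 13747 genes. For Car4 it was Ctsk (0.91), which encodes cathepsin K, and Polr2l (0.903), for Itgax Rnf126 (0.937) and Ikbkg (0.936), and for Fabp4 Rnh1 (0.851) and 6430531B16Rik (0.849). For Siglecf they were Hist1h2af and Hist1h3g (0.963 each), for Chil3 Bmx (0.952) and Nrp1 (0.926), for Cidec Perp (0.985) and Adam22 (0.978), for Ear1 Nsl1 and Tatdn3 (0.942 each), and for Ear2 Hist1h2ak and Hist1h2bn (0.985 each). These values are descriptions over libraries that share the same 4 groups, and so follow the group differences.

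The 40 other genes of the alveolar macrophage programme had 616 tested peaks, none shared with the 10 genes. Of these, 151 were higher (24.5%, against 9.95% of all tested peaks) and 24 lower (3.9%, against 12.6%) in AhR-KO without LPS, with a median log2 fold change of 0.26. With LPS 110 were higher (17.9%, against 13.4%) and 16 lower (2.6%, against 13.1%), with a median of 0.17. In the LPS comparison in WT, 140 fell (22.7%, against 21.6%) and 141 rose (22.9%, against 25.4%), shares near those of all peaks. In AhR-KO 205 fell (33.3%, against 21.5%) and 149 rose (24.2%, against 27.3%). The interaction was lower at 37 (6.01%, against 4.58%) and higher at 28 (4.55%, against 5.83%).

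By role, without LPS 17 of 107 peaks of regulators (15.9%), 13 of 81 of growth factor receptors (16%), 40 of 139 of lipid-handling genes (28.8%) and 81 of 289 of surface and secreted proteins (28%) were higher in AhR-KO, against 9.95% of all tested peaks, and 9, 2, 3 and 10 were lower (8.41, 2.47, 2.16 and 3.46%, against 12.6%). With LPS, 11, 10, 35 and 54 were higher (10.3, 12.3, 25.2 and 18.7%, against 13.4%), so that regulators and receptors were below the share of all peaks, and 3, 2, 3 and 8 were lower (2.8, 2.47, 2.16 and 2.77%, against 13.1%). Few genes held many of these higher DARs. With LPS, Slc7a2 had 21 of the 54 of surface and secreted proteins, and Cd36 had 14 and Lpl 10 of the 35 of lipid-handling genes. Without LPS, Slc7a2 had 21 of the 81, and Abcg1 had 13 and Lpl 12 of the 40. Among regulators, a peak of Egr2 (chr10:67528752-67530147), a zinc finger factor, had 1.61 CPM in WT and 4.78 CPM in AhR-KO without LPS (log2 fold change 1.54 ± 0.163, adjusted p = 1.32e-09). The list of regulators also held the carbonic anhydrase gene Car2, of which a peak (chr3:14886107-14888232) was lower in AhR-KO with LPS (56.6 against 37 CPM, -0.62 ± 0.0561, adjusted p = 7.21e-11). Among the receptors of the culture factors, a peak of Tgfbr2 (chr9:116181700-116182442), a TGF-β receptor chain, had 12 CPM in WT and 4.9 CPM in AhR-KO without LPS (-1.29 ± 0.0961, adjusted p = 5.78e-13), and 4.53 and 4.08 CPM with LPS. This was the 1 lower DAR of Tgfbr2 without LPS, against 3 higher, and its start-site peak was at -0.01. Tgfbr1 had 9 higher and 0 lower, among them a peak (chr4:47401984-47402513) with 2.2 CPM in WT and 4.04 CPM in AhR-KO (0.88 ± 0.134, adjusted p = 1.56e-06). Among lipid genes, a peak of Abcg1 (chr17:31072004-31072382), a cholesterol exporter, was higher in AhR-KO (1.68 against 4.29 CPM, 1.4 ± 0.147, adjusted p = 1.08e-09), as was one of the scavenger receptor gene Cd36 with LPS (chr5:17778004-17780132, 1.62 against 4.42 CPM, 1.44 ± 0.146, adjusted p = 6.33e-10). A Fabp5 peak (chr3:10004613-10005278) fell with LPS in AhR-KO from 9.5 to 1.65 CPM (-2.52 ± 0.147, adjusted p = 1.88e-17). Among surface genes, the amino acid transporter Slc7a2 had 21 of 32 peaks higher in AhR-KO in each condition, and its peak at chr8:40855098-40855836 rose with LPS from 0.387 to 5.31 CPM in WT (3.79 ± 0.153, adjusted p = 1.12e-21). A peak of Plet1 (chr9:50482075-50483116), a surface protein, fell with LPS from 24.6 to 8.69 CPM in WT and from 26.9 to 7.57 CPM in AhR-KO (-1.51 ± 0.0823 and -1.83 ± 0.0835).

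Of 39 start-site peaks of this programme, 4 were higher DARs in AhR-KO without LPS, against 1.81% of all tested start-site peaks. LPS gave 8 lower start-site DARs in WT, against 5.74%, and 18 in AhR-KO, against 10.6%. The programme's highest start-site level per kb was that of Etv5 (46.4 CPM) and the lowest that of Cidea (4.91 CPM).

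Markers of cell types were read from their start-site peaks, summed in CPM. Macrophage markers had 6 of 7 such peaks (all but Spi1), with 113 to 130 CPM in WT, 130 to 167 in AhR-KO, 105 to 117 in WT LPS and 101 to 131 in AhR-KO LPS libraries, so the AhR-KO range without LPS began where the WT range ended. Eosinophil markers had 2 of 5 (Prg3 and Ccr3, with no peak at Epx, Prg2 or Il5ra), with 4.26 to 5.93, 3.46 to 4.08, 2.81 to 3.51 and 2.31 to 2.84 CPM in the same order. Most of this sum was Prg3, which was lower with LPS (-0.89 in WT and -1.18 in AhR-KO), as were Siglecf, Ear1 and Ear2, whereas Ccr3 was higher with LPS (0.68, adjusted p = 0.0442, and 1.75, adjusted p = 2.01e-06). With LPS Prg3 was lower (-0.73) and Ccr3 higher (0.60) in AhR-KO than in WT. Mast cell and basophil markers had 1 of 5 (Kit, with none at Cpa3, Mcpt8, Ms4a2 or Fcer1a, and 8.96 to 12.9, 3.97 to 5.3, 11 to 15.9 and 5.47 to 7 CPM), lower in AhR-KO. Dendritic cell markers had 5 of 7 (none at Itgae or Xcr1, with 30.8 to 46.4, 31.9 to 39, 32.5 to 52.6 and 23.6 to 30.8 CPM), neutrophil markers 6 of 9 (none at Mpo, Elane or Ly6g, with 38.1 to 53.6, 39.4 to 43.5, 39.4 to 58.5 and 47.8 to 57 CPM) and monocyte markers 2 of 2 (13.4 to 17.4, 13.6 to 15.7, 8.47 to 10.2 and 6.23 to 9.08 CPM). Markers of other resident macrophages had 6 of 11 (none at Timd4, Sall1, Clec4f, Vsig4 or Lyve1, with 41.1 to 51.2, 43.4 to 46.7, 45.4 to 48 and 38.4 to 43.5 CPM), lymphocyte markers 1 of 5 (Ebf1, while Cd3e, Cd8a and Cd79a were among those with none, and 6.63 to 8.65, 5.36 to 7.04, 6.47 to 9.88 and 6.55 to 8.51 CPM) and stromal markers 3 of 4 (none at Col1a1, with 18.6 to 24.9, 21 to 25, 19 to 27 and 19 to 21 CPM). Within these sums single markers differed by genotype. Without LPS the start sites of Ngp (-1.11), Ltf (-0.93), S100a9 (-1.35) and Cxcr2 (-0.84), 4 of the 6 for neutrophils, were lower DARs in AhR-KO and 0 were higher, against 3.77% and 1.81% of all tested start-site peaks, while S100a8 and Camp, the largest parts of the sum, were at 0.25 and -0.19. With LPS Ngp (-1.44) and S100a9 (-1.11) were lower DARs. Among dendritic cell markers, Flt3 (-1.16 without and -1.29 with LPS) and Dpp4 (-0.79 and -0.66) were lower DARs in AhR-KO in both conditions and Ccr7 with LPS (-1.53), against 5.1% of all tested start-site peaks lower in AhR-KO with LPS. Zbtb46, the largest part of the dendritic cell sum, was at 0.21 without and -0.19 with LPS, neither a DAR. Ccr7 was not called without LPS (-0.82, edgeR adjusted p = 0.109), and Cd209a was not tested. Of other macrophage markers, Cd5l was higher in both conditions (1.61 and 1.04) and Cx3cr1 lower with LPS (-1.04). The start-site peaks of Cd5l, Ngp, Ltf and Ccr3 were weak, at percentiles 2.76, 5.91, 2.47 and 0.998 of all start-site peaks in CPM per kb. Over all peaks of each list, the shares lower in AhR-KO without and with LPS were 21.6% and 19.3% for neutrophil, 20% and 28.9% for dendritic cell, 45.2% and 42.9% for mast cell and basophil, and 26.1% and 54.3% for lymphocyte markers, against 12.6% and 13.1% of all tested peaks. For macrophage markers 8.4% and 16% were lower and 21% and 5.88% higher, against 9.95% and 13.4% of all tested peaks higher. For eosinophil markers 16.7% and 20.8% were lower and 16.7% and 16.7% higher. For other resident macrophage markers 13.3% and 14.2% were lower and 11.5% and 17.7% higher. For monocyte markers 14.3% and 9.52% were lower and 14.3% and 28.6% higher. For stromal markers 8.89% and 8.89% were lower and 6.67% and 4.44% higher. The part of these markers in the results above was not tested. The start-site peak of Ahr itself (chr12:35534070-35535364) had 20.2 to 24.6 CPM in WT and 11.5 to 15.1 CPM in AhR-KO without LPS, and 19 to 22.2 and 11.9 to 16.8 CPM with LPS. This peak was taken because it covers the start of the gene, so its difference does not check the deletion.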

How the data were processed

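Per the file headers, the authors' table holds counts of read pairs in consensus peaks on mm10, made by featureCounts 2.0.1 with pairs given to every overlapping peak and a fraction of at least 0.2 of a pair in the peak. The authors used the nf-core atacseq pipeline, called broad peaks in each library alone with MACS2 and merged them over all libraries. How reads aligning to several places were handled is not given in the sources used here. The deposited broad peak lists give a fold enrichment (ratio over local background) and a -log10 q-value per peak. All 24 count columns were mapped by name, leaving 0 unmapped. The table's starts equalled the 0-based starts of 203064 library peaks and the 1-based starts of 0, so 1 was added to give 1-based positions. Genes were taken from GENCODE vM21.

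Counts were filtered with filterByExpr by group, normalized with TMM (factors 0.976 to 1.04) and fitted with edgeR 4.0.16 (quasi-likelihood, robust, R 4.3.3) on group alone over all 24 libraries. Tests were two-sided with Benjamini-Hochberg adjustment over 174193 peaks, and the script was tested on simulated data. CPM were computed from these normalized totals, and Python 3.11.15 was used for the summaries. Alternatives were other size factors, DESeq2 1.42.0, no filter, a replicate block, only the groups compared, libraries thinned to the lowest total, other windows and thresholds, and leaving out each library. Replicate numbers are shared by the 4 groups, and whether they mark the same animal is not stated. Deviations of same-numbered unstimulated and LPS libraries correlated above 0.1 in 5 of 6 WT pairs and 3 of 6 AhR-KO pairs. Between genotypes this held in 0 to 2 of 6 pairs. Pairing within a genotype therefore cannot be set aside, but the main fit treats libraries as unpaired. The replicate block ties numbers across both genotypes and does not model pairing within 1 genotype. Intervals of shares are exact binomial and cover counting error only.

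For each gene the start-site peak, the peak with the highest mean CPM and the peak with the smallest p in each comparison were named; from the other lists, the peak with the smallest p in each direction. Some genes of those lists are counted with the list but not reported here by name. The Ear1 peak at 70.91 kb and the Marco peaks beyond the gene were named after their values were seen. The genes and lists were chosen with earlier results of these data known.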

Additional observations from a re-analysis of the deposited data

Results flagged for a closer look

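In 156 groups of 6 libraries at the named peaks, 9 held a library whose gap to its nearest neighbour, over the group's range, passed Dixon's 95% critical value, and chance flags about 1 in 20 groups. In AhR-KO unstimulated libraries, replicate 5 had 12.9 CPM at the Siglecf start site (others 9.95 to 10.6), replicate 6 had 0.424 CPM at Siglecf 20.27 kb (others 0.866 to 0.999) and 43.3 CPM at Chil3 -3.13 kb (others 36.5 to 37.6), and replicate 1 had 1.85 CPM at Cidec -19.42 kb (others 1.19 to 1.36). In WT LPS libraries, replicate 4 had 1.01 CPM at Car4 -11.88 kb (others 0.533 to 0.659) and replicate 3 had 1.87 CPM at Krt79 -5.16 kb (others 1.05 to 1.34). In WT unstimulated libraries, replicate 3 had 17.1 CPM at Car4 21.75 kb (others 12.3 to 14.1) and replicate 1 had 0.132 CPM at Ear2 7.49 kb (others 0.198 to 0.233). AhR-KO LPS replicate 1 had 1.97 CPM at the Marco start site (others 2.57 to 2.89).

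By the edgeR interaction test, 7 of the 113 peaks were lower (6.19%, against 4.58% of all tested peaks) and 1 was higher (0.885%, against 5.83%), given as the log2 difference with LPS minus that without. The interaction was -1.09 at Car4 -11.88 kb (adjusted p = 0.00751, but -0.42 with an adjusted p of 0.573 when thinned to the lowest total), -0.72 at Itgax 35.2 kb (0.0429), -0.97 at Krt79 -5.16 kb (0.00311), -0.67 at Krt79 29.7 kb (0.0167), -1.05 at Ear1 58.11 kb (1.35e-05), -0.65 at Ear2 -3.84 kb (0.0124) and -0.67 at the Ear2 start site (8.79e-05). It was positive at Chil3 -10.92 kb, 0.87 (0.00343, and 0.0686 when thinned).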

How the results depend on the processing

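Of 107 named values repeated 3292 times under the alternatives, 3222 repeats kept direction and side of the threshold, 39 fell below it, 31 rose above it and 0 reversed. The counts below are DARs at the 10 genes; those not given stayed within 1.5 times. With RLE size factors or DESeq2, 0 peaks were lower in AhR-KO without LPS and the interaction was lower at 11. Calls over all tested peaks moved too. With RLE size factors 19366 were lower and 20676 higher in AhR-KO without LPS, against 22015 and 17332 in the main fit. The interaction was lower at 9574, against 7985. Thinned to the lowest total, the interaction was higher at 0 peaks, and the start-site and 9.41 kb differences of Fabp4 with LPS (0.56 and 0.51) were not DARs, while that of the Marco start site (0.91) was. Within 5 kb, 0 peaks were lower in AhR-KO without LPS, 1 lower and 12 higher with LPS, 7 higher with LPS in WT, 4 higher with LPS in AhR-KO, and the interaction was lower at 4 and higher at 0. Within 50 kb these were 8 lower without and 14 lower with LPS, 62 lower and 36 higher in WT, 71 lower and 28 higher in AhR-KO, and 14 and 2. At 2-fold they were 0 lower and 12 higher without LPS, 1 and 6 with LPS, 17 and 11 in WT, 29 lower in AhR-KO, and 2 and 0. With no fold threshold, 6 were lower and 51 higher without LPS, 11 and 35 with LPS, and the interaction was lower at 14. Wider or narrower windows hold more or fewer peaks by construction. Shares were not computed for other windows or fold thresholds, so these counts cannot be set against those of all tested peaks. For size factors and thinning the cause was not tested. In whole peaks the AhR core was found in 26.1% of the peaks at these genes and 29.1% of all, AP-1 in 32.2% and 31.3%, C/EBP in 42.6% and 29.5%, the nuclear receptor core in 53% and 36.9%, and IRF in 18.3% and 21.8%.

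Leaving out 1 library gave 0 to 3 lower and 24 to 35 higher DARs in AhR-KO without LPS, 2 to 4 and 16 to 24 with LPS, 35 to 41 and 17 to 19 for LPS in WT, 43 to 48 and 13 to 15 in AhR-KO, and 5 to 12 and 1 to 2 for the interaction. With the replicate block, the counts were 1 and 30, 3 and 20, 37 and 18, 48 and 14, and 8 and 1. Same-numbered libraries correlated best with each other in 4 of 6 pairs within WT and 3 of 6 within AhR-KO. Between genotypes this was so in 1 or 2 of 6 pairs. Of the named values, the block changed only the LPS difference in AhR-KO at the Car4 start site, which became a DAR (-0.59). Broad peaks covered a start site in 191 of 216 cases at 1 or 100 bases and in 149 at a -log10 q of at least 5.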
